A study of Mus musculus with 8 samples.

Results

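Both arms of the miR-877 hairpin and both arms of the miR-1249 hairpin were examined in primary murine articular chondrocytes exposed to IL-1β. These 4 names (mmu-miR-877-5p, mmu-miR-877-3p, mmu-miR-1249-5p and mmu-miR-1249-3p) were taken from a table of 1966 mature miRNA names. The hairpins were chosen from the measured response itself, since miR-877-3p and miR-1249-3p were among the 11 of 564 tested miRNAs (1.95%) that passed the call described in this paragraph, 8 of them higher with IL-1β (1.42%). A call required an adjusted p under 0.05 in edgeR's quasi-likelihood test across all tested miRNAs and an absolute log2 fold change over 0.3. All differences between vehicle and IL-1β given for the 4 arms, and all arm ratios, are therefore descriptions without a test of their own.

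The cells were chondrocytes released by collagenase from femoral head cartilage and kept in primary culture. The donor mice were wild type and 3 weeks old. The vehicle group (n = 4 libraries) received the carrier, and the IL-1β group (n = 4 libraries) received 1 ng/ml of this inflammatory cytokine for 24 h. No sample carried a transgene or a deletion by its labels. How many mice contributed to a library, and whether the replicates were separate cultures, was not given in the sources used here, so the spread between libraries may be partly technical.

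A miRNA is a short RNA that is cut from the 5′ arm (5p) or the 3′ arm (3p) of a hairpin and carried by an Argonaute protein to target transcripts, which it recognizes mainly through its seed, bases 2 to 8. Most hairpins are released from a longer transcript by the nuclease Drosha and are then trimmed by Dicer. A mirtron takes another route. It is a short intron that the spliceosome cuts out, and after its lariat is opened it folds into a hairpin that Dicer can use directly. In a mirtron the 5p arm begins at the 5′ splice site and the 3p arm lies in the pyrimidine-rich stretch that precedes the 3′ splice site. miR-877 is a mirtron of Abcf1, which encodes a ribosome-associated protein of the ATP-binding cassette family that acts in translation initiation.

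The mature sequences are given first (RefSeq, GRCm38.p6, 5′ to 3′, seed in capitals). A sequence was matched for 3 of the 4 arms, and mmu-miR-1249-5p is given by name only.
mmu-miR-877-5p: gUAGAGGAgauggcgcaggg
mmu-miR-877-3p: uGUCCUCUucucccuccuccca
mmu-miR-1249-3p: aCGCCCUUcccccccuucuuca

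Each of these 3 sequences occurred in 1 hairpin of the RefSeq table, and no other mature mouse miRNA of that table shared any of the 3 seeds. The 3p arms resembled each other in composition. Pyrimidines (C and U) made up 90.9% of miR-877-3p and 86.4% of miR-1249-3p, against a median of 54.5% over 491 tested miRNAs with a sequence. Of these 491, only miR-877-3p itself reached its share, and 6, both chosen arms included, reached that of miR-1249-3p. The shares of miR-483-3p and miR-8103 (90.5% each) and miR-6975-3p (90%) were close to that of miR-877-3p. The 5p arm of miR-877 was at the other extreme, where 4 of 20 bases were pyrimidines. The seeds of the 3p arms, GUCCUCU and CGCCCUU, nevertheless differed, so the arms do not belong to a common seed family.

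The hairpins differed in their relation to splice sites. Mir877 (chr17:35960730-35960814, minus strand, GRCm38) coincided to the base with intron 12 of 22 of the Abcf1 transcript Abcf1-201, so that the 85-base hairpin and the 85-base intron were the same segment. The whole hairpin is shown with the mature arms in capitals.
Mir877: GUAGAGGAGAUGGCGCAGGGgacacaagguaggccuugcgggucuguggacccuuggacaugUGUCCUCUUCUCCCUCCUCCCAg
It began with GU and ended with AG, the usual first and last bases of an intron. The 5p arm started at base 1 and the 3p arm ended at base 84, so a single base followed it before the 3′ splice site.

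Mir1249 (chr15:84951526-84951623, minus strand, GRCm38) lay inside intron 7 of 9 of 5031439G07Rik, a protein-coding gene that is the mouse counterpart of human KIAA0930. The hairpin is printed for contrast, with the 3p arm in capitals.
Mir1249: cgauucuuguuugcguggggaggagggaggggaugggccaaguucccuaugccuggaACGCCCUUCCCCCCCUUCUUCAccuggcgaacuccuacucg
This 98-base hairpin was 1506 bases from the 5′ splice site and 751 bases from the 3′ splice site of an intron of 2355 bases, in both annotated transcripts that splice this intron. A further transcript, annotated as a retained intron, contained the hairpin in an exon. By annotation miR-1249 was therefore an intronic hairpin without an end at a splice site, and only miR-877 had a splice-linked layout. Among 565 hairpins within an annotated intron on the same strand, 16 (2.83%) had both ends within 2 bases of the intron ends.

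**Figure D1:**
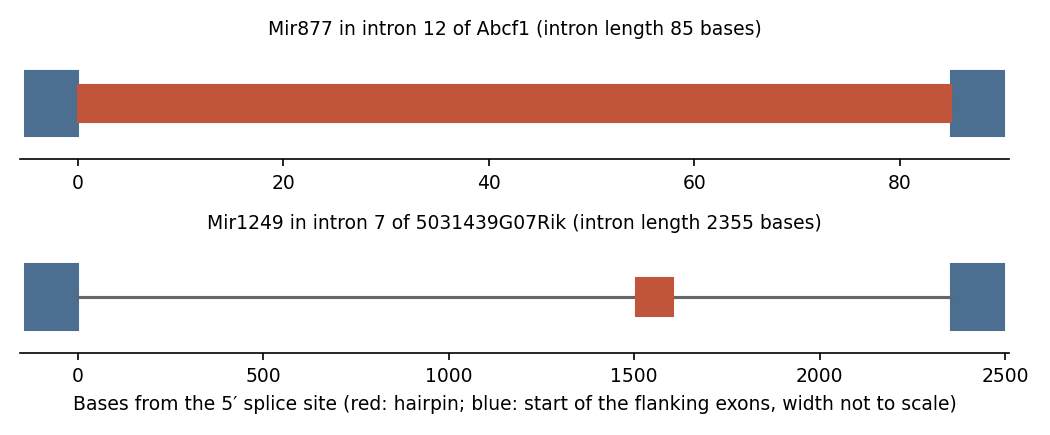
Position of each hairpin (red) within its host intron (line), in bases from the 5′ splice site, with the flanking exons marked in blue and a separate scale for each panel. Mir877 fills its 85-base intron, whereas Mir1249 takes 98 bases of a 2355-base intron and lies 1506 bases from the 5′ splice site.

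In the minimum free energy fold of Mir877 (-36.5 kcal/mol), 13 of the 20 bases of the 5p arm were paired, all with the 3p arm. In that of Mir1249 (-51.6 kcal/mol), 20 of the 22 bases of the 3p arm were paired.

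The libraries held 616475 to 1568367 counts, and 1 count was worth 0.638 to 1.62 CPM, the count scaled to a fixed library total. Values below are normalized CPM, that is, CPM with library totals scaled by TMM. Chondrocyte identity was checked with miR-140 and miR-455, which are typical of cartilage. Their 4 arms summed to 153547 to 168966 normalized CPM with vehicle and 132602 to 155815 with IL-1β. All 5 muscle markers and the liver marker miR-122-5p were at 0. Haematopoietic markers, of which 2 of 5 had counts (miR-142a-3p, miR-223-3p and miR-451a were at 0), summed to 43.5 to 62.5 with vehicle and 25.6 to 45.5 with IL-1β. Endothelial markers (1 of 2 with counts, miR-126a-5p at 0) reached at most 2.92 in any library. Epithelial markers (5 of 7 with counts, miR-200c-3p and miR-429-3p at 0) summed to 0 to 3.12 with vehicle and 1.6 to 11.7 with IL-1β. The part of other cells in the differences below was not tested.

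miR-877-3p was the scarcer arm of its hairpin in every vehicle library, in replicate 1 by a small margin. Vehicle replicates 1 to 4 held 251, 174, 213 and 204 normalized CPM of it. The IL-1β replicates, in the same order, held 331, 288, 276 and 309.6. Every IL-1β library was above every vehicle library, and the vehicle library closest to the IL-1β group was replicate 1. The mean rose from 211 ± 31.8 to 301 ± 24.2 (SD, n = 4), so the ratio of means was 1.43 and the fitted log2 fold change 0.52 (SE 0.112). In bulk RNA such a value cannot separate more cells with the miRNA from more of it per cell.

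miR-1249-3p was the most abundant of the 4 arms in 6 of the 8 libraries, the exceptions being vehicle replicates 3 and 4, where miR-877-5p was higher. Vehicle replicates 1 to 4 held 322, 308, 320.5 and 279 normalized CPM of it. The IL-1β replicates, in the same order, held 426, 472, 368 and 359.7. The groups again did not overlap, and the IL-1β libraries fell into replicates 1 and 2 at the upper end and replicates 3 and 4 nearer to vehicle. The mean rose from 307 ± 20.1 to 406 ± 52.6 (SD, n = 4), so the ratio of means was 1.32 and the fitted log2 fold change 0.40 (SE 0.102).

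miR-877-5p did not follow its partner arm. Vehicle replicates 1 to 4 held 258, 274, 324 and 291 normalized CPM of it, and the IL-1β replicates 256, 292, 249.9 and 224. IL-1β replicate 2 lay within the vehicle range, whereas the other 3 IL-1β libraries lay below the lowest vehicle library, replicate 1 by a small margin. The vehicle mean was 287 ± 28.2 and the IL-1β mean 255 ± 27.7 (SD, n = 4). The fitted log2 fold change was -0.16 (SE 0.107). With a library left out it ranged from -0.27 (IL-1β replicate 2) to -0.10 (vehicle replicate 3), and the arm was called in none of these fits.

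miR-1249-5p, listed in the table at 25 nt, had 0 counts in all 8 libraries and could not be tested. At 3 counts as the limit compatible with an observed 0, this allows up to 1.91 CPM in the deepest library and 4.87 CPM in the shallowest. Set against the 2822 counts of miR-1249-3p, it allows the 5p arm up to 0.106% of the counts of the hairpin (counting error only).

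**Figure D2:**
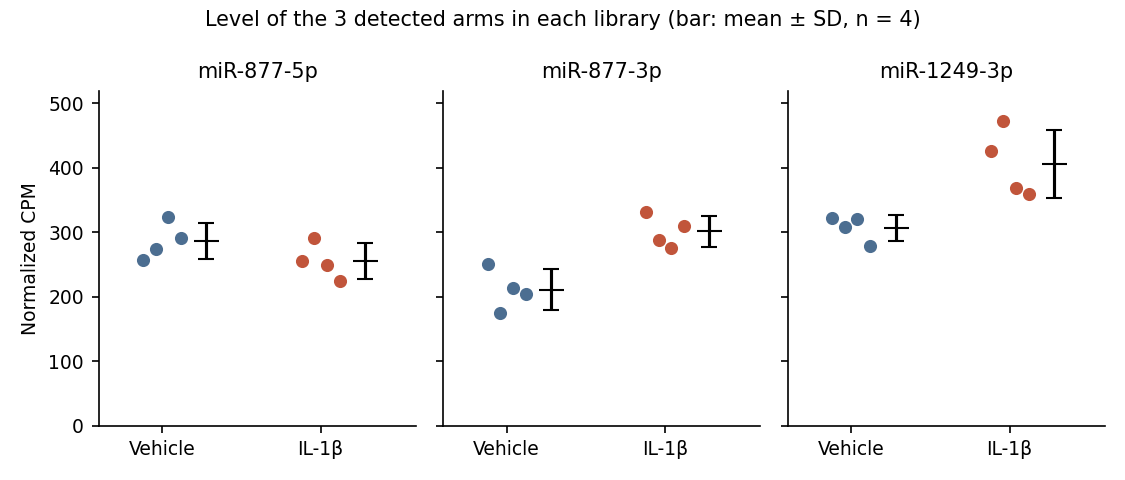
Normalized CPM (vertical axis) of the 3 detected arms in each library, with vehicle in blue, IL-1β in red and the mean ± SD of 4 libraries beside the points. For miR-877-3p and miR-1249-3p all IL-1β points lie above all vehicle points, whereas those of miR-877-5p overlap through IL-1β replicate 2.

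Of the 3 arms tested, 2 had all IL-1β libraries above all vehicle libraries, which held for 4.61% of all 564 tested miRNAs. Both were the arms that chose the hairpins, so nothing is read from this count. The adjusted p that admitted them was 0.0103 for miR-877-3p and 0.0323 for miR-1249-3p in edgeR's test. The latter value was shared with miR-6944-3p and miR-381-3p, the other calls nearest to the threshold, and the first miRNA outside it was miR-6238 at 0.0573. The calls did not hold with every library left out. miR-877-3p was no longer called without vehicle replicate 2 (log2 fold change 0.43) or vehicle replicate 4 (0.48). miR-1249-3p was no longer called without vehicle replicate 2 (0.40), 3 (0.42) or 4 (0.34), or without IL-1β replicate 1 (0.38), 2 (0.28) or 3 (0.44). Without vehicle replicate 3 or IL-1β replicate 3 the fold change of miR-1249-3p was no smaller than in the full set. Without vehicle replicate 2 it was nearly unchanged (0.402 against 0.403). In the other fits that lost a call the fold change was smaller. IL-1β replicate 4 differed from the other IL-1β libraries over the names with at least 20 counts in a pair of libraries, with a chi-square per degree of freedom of 54.0 to 81.6 against 4.67 to 16.3 for all other pairs within a group. Without it the ratio of means was 1.42 for miR-877-3p, 1.37 for miR-1249-3p and 0.927 for miR-877-5p.

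Counting error was a sizeable part of these spreads. With 131 to 342 counts per library, the counting error of miR-877-3p alone was 5.41% to 8.74%, while its coefficient of variation between libraries was 15.1% with vehicle and 8.04% with IL-1β. For miR-1249-3p, at 179 to 560 counts, the counting error was 4.23% to 7.47% and the coefficient of variation 6.54% and 12.9%.

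Because both arms of a hairpin are counted in the same library, their ratio does not depend on the scaling between libraries. The share of miR-877-3p in the counts of both arms was 49.4%, 38.8%, 39.7% and 41.2% in vehicle replicates 1 to 4. The IL-1β replicates, in the same order, gave 56.4%, 49.7%, 52.5% and 58.0%. By observed counts the 5p arm was thus the major arm in all vehicle libraries, and the 3p arm in 3 of the 4 IL-1β libraries. The 95% exact binomial intervals of vehicle replicate 1 and IL-1β replicates 2 and 3 included equal arms. The mean share in vehicle libraries was 42.3% ± 4.83 and in IL-1β libraries 54.1% ± 3.75 (SD, n = 4), or 52.9% ± 3.36 without IL-1β replicate 4 (SD, n = 3). The highest vehicle library (replicate 1, 95% exact binomial interval 44.8% to 53.9%) and the lowest IL-1β library (replicate 2, 45.9% to 53.5%) lay within the interval of each other. These intervals cover counting error only, since PCR reads are not independent molecules, and do not include the spread between libraries.

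**Figure D3:**
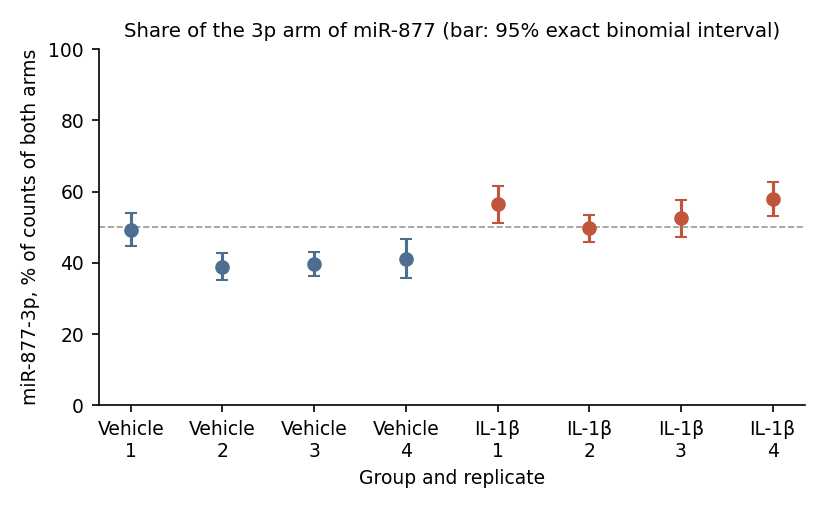
Share of miR-877-3p in the counts of both miR-877 arms (vertical axis, %) in each library, with vehicle in blue and IL-1β in red. Points are the observed shares, bars are 95% exact binomial intervals (counting error only) and the dashed line marks equal arms. Vehicle libraries lie between 38.8% and 49.4% and IL-1β libraries between 49.7% and 58.0%.

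On the log2 scale the ratio of 3p to 5p went from -0.45 ± 0.28 to 0.24 ± 0.22 (SD, n = 4), a difference of 0.69. miR-877 was compared with the 24 hairpins, itself included, whose arms both averaged 50 counts or more. The median size of the change over these was 0.13, and the groups did not overlap for 2 of them (8.33%), miR-877 and miR-210. The latter moved the other way, by -0.66. Over all 142 hairpins with both arms tested, including scarce arms, the median size of the change was 0.28. In that wider set 35 hairpins, miR-877 included, changed by at least as much as miR-877, and 6 (4.23%) had no overlap between the groups. Since the ratio contains the arm that chose the hairpin, its place in either range is a description. The arms of miR-877 were also more even than most, with the third smallest log2 ratio in vehicle libraries, where the median size over the 24 hairpins was 3.38. Ligation favors some sequences, so the ratio is not one of molecules.

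**Figure D4:**
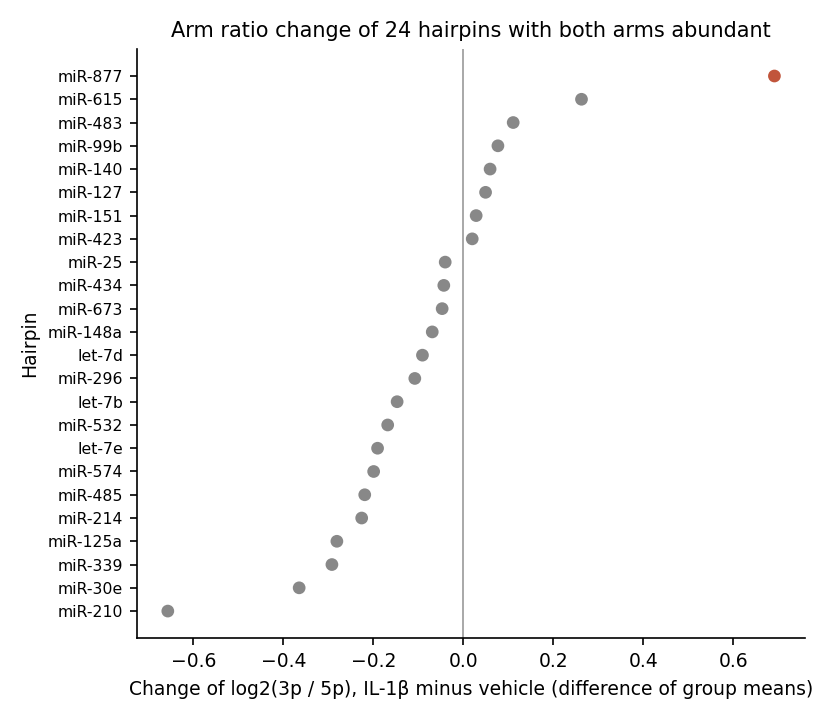
Difference between the IL-1β and vehicle means of log2(3p/5p) for 24 hairpins with both arms abundant, in order of size, with miR-877 in red. miR-877 lies at 0.69 on the side of the 3p arm and miR-210 at -0.66 on the side of the 5p arm.

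The output of the miR-877 hairpin as a whole overlapped between the groups, unlike its 3p arm. The arms together gave 497 ± 36.9 normalized CPM (SD, n = 4) in the vehicle group and 557 ± 31.2 in the IL-1β group, with ranges of 448 to 537 and 526 to 587. Abcf1 mRNA and 5031439G07Rik mRNA were not analysed here.

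The relation between the hairpins was given by ratios within a library as well. The log2 ratio of miR-1249-3p to miR-877-3p was 0.55 ± 0.20 (SD, n = 4) in the vehicle group and 0.43 ± 0.21 in the IL-1β group, within the spread between libraries. The log2 ratio of miR-1249-3p to miR-877-5p was 0.10 ± 0.18 and 0.67 ± 0.08 (SD, n = 4), without overlap between the groups. This ratio lay between -0.06 and 0.32 with vehicle and between 0.56 and 0.73 with IL-1β. Both 3p arms were chosen from this same contrast, and no share over other pairs was formed. Nothing is therefore read from either ratio.

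Likeness of profile was measured as the root mean square difference of log2 normalized CPM over the 8 libraries, each profile centered on its own mean, among the 195 miRNAs that averaged 50 counts or more. The nearest to miR-877-3p were miR-3535 (0.16), miR-210-5p (0.17) and miR-671-3p (0.18), and miR-1249-3p was in place 4 (0.19). The median distance from miR-877-3p was 0.34. The nearest to miR-1249-3p were let-7i-5p (0.13), miR-222-3p (0.14) and miR-671-3p (0.14), with miR-877-3p in place 11 and a median distance of 0.28. These distances include the difference between the groups, and libraries of these depths add counting error to each.

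Other mirtrons were set beside miR-877. Among 7 tested arms of the mirtrons miR-702, miR-1981 and miR-3102, none was called in edgeR's or DESeq2's test and 1 had an unadjusted p under 0.05 in edgeR's test. Of all 564 tested miRNAs, 1.95% were called by edgeR, 2.13% by DESeq2, and 11.2% had an unadjusted p under 0.05. The median log2 fold change was 0.11, against 0.01 over all 564. miR-1224 had 1 count in all on its 3p arm and none on its 5p arm, and no miR-1225 or miR-1226 was among the 1966 names. The best counted of the 7 were miR-3102-3p and miR-3102-3p.2-3p. The mean of the former was 188 ± 21.1 normalized CPM (SD, n = 4) for vehicle and 178 ± 15.0 for IL-1β, and its log2 fold change was -0.07. The latter averaged 168 ± 14.6 and 190 ± 22.3 (log2 fold change 0.18). The scarce miR-3102-5p and miR-3102-5p.2-5p had log2 fold changes of -1.10 (SE 0.983) and 0.59 (SE 0.268). miR-702-3p, 81.8% pyrimidine, averaged 70.1 ± 4.02 and 76.0 ± 19.7 (log2 fold change 0.11). miR-1981, like miR-877, had both arms tested, at log2 fold changes of 0.12 (3p, SE 0.282) and -0.05 (5p, SE 0.250).

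In the series numbered miR-6896 to miR-7094, which includes many annotated mirtron-type hairpins, 63 of 403 names were tested and 1 was called, miR-6944-3p, where 1.95% of all 564 tested miRNAs were called. This count is near that background and is not a result about the series. It rose from 83.9 ± 15.3 with vehicle to 126 ± 11.1 normalized CPM (SD, n = 4) with IL-1β. Its log2 fold change was 0.55 (SE 0.137). The median of the 63 was 0.01. The tested arms were mostly 3p (51 of 63). The miR-6944 hairpin (chr13:55477681-55477776, minus strand) is shown because it shares the layout of Mir877, with the mature arms in capitals.
Mir6944: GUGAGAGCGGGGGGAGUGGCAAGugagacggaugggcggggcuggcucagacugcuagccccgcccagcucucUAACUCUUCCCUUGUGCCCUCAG
It filled a 96-base intron of Dbn1, which encodes the actin-binding protein drebrin, from GU to AG. Its 5p arm had 0 counts in all 8 libraries, so that no arm ratio could be formed.

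A list of all hairpins with both ends within 2 bases of the ends of an intron was formed after these values were seen. Of its 30 listed names, 9 were tested. The called arms were miR-877-3p, which had chosen its hairpin by this call, and miR-6944-3p, whose call was known when the list was made, so their share is not read against the 1.95% called over all 564 tested miRNAs. Apart from miR-877, the 6 tested 3p arms had log2 fold changes of -0.997 (miR-7018-3p) to 0.55 with a median of 0.04, and 3 were above 0. Those other than miR-6944-3p had a vehicle mean of at most 22.4 normalized CPM and wide errors. For 47 tested 3p arms of hairpins with a single end at a splice site the median was 0.01, none was called in edgeR's or DESeq2's test and 2 had an unadjusted p under 0.05 (11.2% of all tested miRNAs). Of 15 tested miRNAs with at least 80% pyrimidines other than the 2 chosen arms, none was called in edgeR's or DESeq2's test, and none had an unadjusted p under 0.05 (11.2% of all tested miRNAs). Of the 15, 10 had a log2 fold change above 0, as did 285 of all 564, and the median was 0.11.

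**Figure D5:**
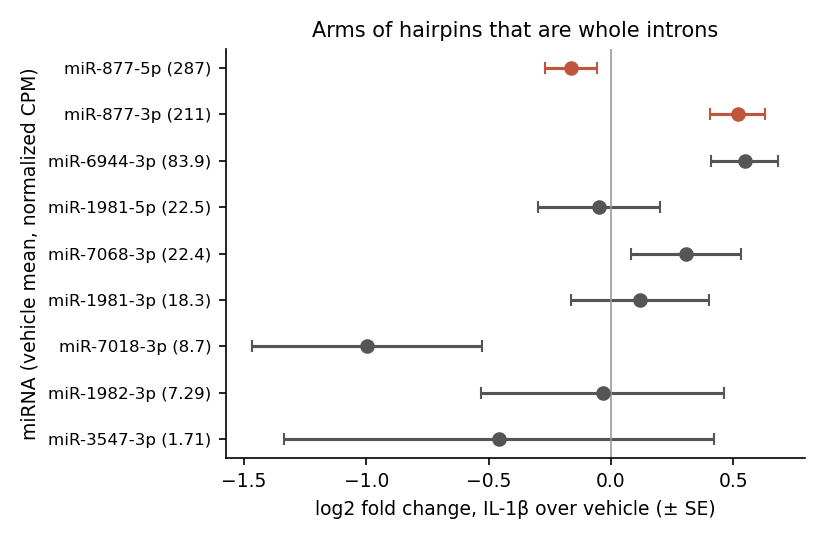
Log2 fold change (IL-1β over vehicle, ± SE) of the 9 tested arms of hairpins with both ends within 2 bases of the ends of an intron, ordered by their vehicle mean in normalized CPM (in parentheses), with miR-877 in red. miR-877-3p and miR-6944-3p lie at 0.52 and 0.55, miR-877-5p at -0.16, and the scarcer arms have wide errors on both sides of 0.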

How the data were processed

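Total RNA of vehicle- or IL-1β-treated chondrocytes had been sequenced as miRNA libraries. The authors trimmed reads with cutadapt, aligned them to mm10 with STAR (version 2.4.2a in the submitters' processing notes, another version in the study's methods) and deposited raw counts per mature miRNA from featureCounts. The methods also describe a correction with RUVseq, but the deposited values are whole-number counts and none was applied here. The use of strand and of reads with several positions was not given in the sources used here.

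Counts were tested in R 4.3.3 with edgeR 4.0.16 (robust quasi-likelihood test, TMM, group as the only term) for miRNAs over 1 CPM in at least 4 of 8 libraries, adjusted by Benjamini-Hochberg. The fit was tested on simulated data. The SE was the log2 fold change over the square root of F. Thresholds were those given with the study's miRNA results. Arm ratios used counts plus 0.5. Libraries carry 95% exact binomial intervals. Hairpins were compared with GENCODE M21 introns (GRCm38) and folded with ViennaRNA 2.7.2. Alternatives used DESeq2 1.42.0, sva 3.50.0, other scaling and filters, and each library left out. All pairs of libraries in a group differed beyond sampling noise.

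The members and lists were chosen with earlier results of these data known. Named were the 4 arms, the tested arms of known mirtrons (miR-702, miR-1981 and miR-3102 had any), called members of the miR-6896 to miR-7094 series, any miRNA with a shared seed and the 3 nearest profiles of each 3p arm. Other names were chosen after their values were seen.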

Additional observations from a re-analysis of the deposited data

How the results depend on the processing

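The 11 calls became 19 with a replicate block and 7 with 1 surrogate variable, and 6 to 19 when a library was left out (6 without vehicle replicate 4, 19 without IL-1β replicate 4). Deviations from the group means gave no clear sign of pairing by replicate number. Their correlations were 0.171, -0.345, 0.101 and -0.183 for numbers 1 to 4. For 1 of 4 numbers the match with its own number was the best in both directions. So few libraries cannot settle whether numbers were paired. Under the replicate block both 3p arms stayed called (log2 fold changes 0.53 and 0.40). Both 3p arms were chosen from these same counts, with no overlap between the groups. That they kept their direction is therefore no support. miR-877-3p kept its direction in all 15 alternatives, at 0.43 to 0.61 with a library left out. It was called in 12 (edgeR or DESeq2 adjusted p from 0.000879 to 0.0850 over all 15). With 1 surrogate variable it was not called (0.46). miR-1249-3p kept its direction in all 15 alternatives, at 0.28 to 0.46 with a library left out. It was called in 8 (edgeR or DESeq2 adjusted p from 0.00186 to 0.254 over all 15). With library totals only it was not called (0.38). The cause was not tested. miR-877-5p was called in none of 15 alternatives (-0.27 to -0.10). The change of the miR-877 arm ratio was 0.62 to 0.83 in 10 alternatives, leaving aside the block, which cannot move a difference of means over 4 and 4 libraries. No alternative gave a value for miR-1249-5p or for the miR-1249 arm ratio, since the 5p arm had 0 counts. With these depths, counting error limits the precision of every arm.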
